A study of Mus musculus with 9 samples.

Results

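The NF-kappaB and IkappaB family was described here through 10 genes: Nfkbid, Nfkbiz and Bcl3, Nfkbia, Nfkbib and Nfkbie, and Nfkb1, Nfkb2, Rela and Relb. They are 10 of the 34866 genes in the deposited tables, found by matching the Ensembl gene identifier of each row to the gene symbol. The genes were chosen by family name and not by a threshold, but the family was picked with results on these libraries known, among them that Nfkbid was 1 of the 3 genes called in acute hypoxia against standard oxygen. The values below are therefore a description of the family, and the counts of its called genes are not independent evidence of a change.

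The libraries came from mouse primary macrophages grown in vitro in alpha-MEM with fetal bovine serum and L929-conditioned medium, in which a fibroblast line supplies macrophage growth factor. Standard oxygen lasted 7 days, acute hypoxia was standard oxygen followed by 3 hours at 1% oxygen, and chronic hypoxia was 7 days at 1% oxygen. Each group had 3 samples, which the study's design text calls biological replicates. The labels give no strain, genotype, age or tissue of origin, and they name no agent added to activate NF-kappaB.

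NF-kappaB is a family of transcription factors that act as pairs of subunits. The subunits made from Rela, Relb and Rel carry an activation domain, whereas Nfkb1 and Nfkb2 encode the precursors p105 and p100, which are processed to the DNA-binding subunits p50 and p52 and which hold other subunits in the cytoplasm while they are intact. IkappaB proteins bind these pairs. The classical IkappaBs, encoded by Nfkbia, Nfkbib and Nfkbie, keep them in the cytoplasm until IkappaB kinase marks the inhibitor for degradation, and Nfkbia is itself a target gene of NF-kappaB, so that it closes a feedback loop. The nuclear or atypical IkappaBs, encoded by Nfkbid (IkappaBNS), Nfkbiz (IkappaB-zeta) and Bcl3, bind p50 or p52 on DNA and raise or lower transcription there; in macrophages IkappaBNS is known for limiting a set of inflammatory genes after stimulation of Toll-like receptors.

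RefSeq promoters on GRCm38.p6, from 250 bases before to 50 bases after a transcription start, were on hand for 7 of the 10 genes, with 11 starts among them; Nfkbiz, Nfkb1 and Relb had no entry. The stretches before 2 starts of Nfkbid and before the start of Nfkbia are shown because these genes held the most IkappaB transcript and differed most between libraries. The 10-base kappaB consensus, the DNA site of NF-kappaB, was searched on both strands, and so was the HIF core, ACGTG or GCGTG, the centre of the site bound by hypoxia-inducible factors. The sequences are written 5′ to 3′ on the strand of the gene. Capitals mark the HIF core before the first Nfkbid start, at chr7:30421481-30421730 on the plus strand, the kappaB consensus before the second Nfkbid start, at chr7:30422156-30422405 on the plus strand, and the kappaB consensus before the Nfkbia start, at chr12:55492648-55492897 on the minus strand.
Nfkbid start 1: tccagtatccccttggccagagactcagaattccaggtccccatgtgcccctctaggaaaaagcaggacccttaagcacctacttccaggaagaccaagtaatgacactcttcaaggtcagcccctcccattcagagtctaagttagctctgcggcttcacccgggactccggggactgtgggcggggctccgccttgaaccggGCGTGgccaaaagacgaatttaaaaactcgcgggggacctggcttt
Nfkbid start 2: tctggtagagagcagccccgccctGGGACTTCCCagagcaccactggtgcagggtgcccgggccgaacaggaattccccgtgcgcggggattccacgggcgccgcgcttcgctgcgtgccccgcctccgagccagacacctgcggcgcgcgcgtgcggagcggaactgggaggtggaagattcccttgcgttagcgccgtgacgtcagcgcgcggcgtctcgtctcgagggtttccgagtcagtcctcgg
Nfkbia start 1: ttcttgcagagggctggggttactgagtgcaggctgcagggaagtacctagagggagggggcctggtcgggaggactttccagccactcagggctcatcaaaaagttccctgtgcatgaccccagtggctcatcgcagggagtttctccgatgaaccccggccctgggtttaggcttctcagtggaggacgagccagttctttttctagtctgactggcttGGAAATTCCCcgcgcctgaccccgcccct

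Position -46 from the first Nfkbid start was the first base of its HIF core, and that window held no kappaB match. The kappaB match before the second start began at -226, and the same window also held 2 HIF cores, left in lower case. The Nfkbia match began at -29, with no HIF core in the window. Among the other genes, with the base at the start counted as 0, Bcl3 held a kappaB match at 2, and Nfkb2 held matches at each of its 3 starts (at -39 and -11, at 10, and at -225). The windows of the last pair of Nfkb2 starts overlap, and the matches at 10 and at -225 are the same site at base 46305705 of chromosome 19. No kappaB match was found in the windows of Nfkbib, Nfkbie, Rela or the third Nfkbid start. In all, 6 of the 11 windows held the kappaB consensus and 6 held a HIF core, against 5.8% and 43.8% of 32851 RefSeq promoters of the same length. A match is a description of the letters and was not tested as a bound site.

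Expression is given in TPM as deposited, a share of the transcripts in a library corrected for gene length, which allows levels to be compared between genes. The depth of the libraries is unknown, because TPM keeps no read totals. Digits in the sample descriptions were shared by 1 sample of each group. Their meaning is not stated, and they are called here the codes X, Y and Z. Replicates 1, 2 and 3 have codes X, Z and Y in standard oxygen, and codes X, Y and Z in acute and chronic hypoxia. Where 3 levels or shares of a group are listed without codes, they follow replicates 1, 2 and 3. Differences within pairs follow codes X, Y and Z. The 3 libraries with code Z stood apart from the other 6 on the first principal component, which held 36.9% of the variance, at scores of 29.39 to 43.29 against -25.02 to -11.32. They also held 2.21 to 3.37 TPM of Mertk, a receptor for dying cells, against 21.8 to 33.3 TPM in the others. All 8 macrophage markers examined were present in every library, with Lyz2 at 52792.6 TPM or more. The summed markers of T and NK cells, B cells, dendritic cells, mast cells, fibroblasts and erythroid cells stayed at or below 1.95 TPM per list. The granulocyte list ranged from 899 to 1597.8 summed TPM under standard oxygen, from 941 to 1910.8 under acute and from 260.2 to 589 under chronic hypoxia, nearly all of it S100a8, while no other gene of that list passed 4.18 TPM. Transcripts of the mitochondrial genome made up 2.61% to 3.78% of the total in chronic hypoxia, below the 4.41% to 5.69% of standard oxygen and the 4.53% to 5.34% of acute hypoxia. The part of either in the results below was not tested. In bulk RNA, fewer cells of a type and less transcript per cell cannot be told apart.

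Code Z moved with most of the family. Within standard oxygen the code Z library had the highest level of the 3 for 8 of the 10 genes, the exceptions being Rela and Relb, and the median ratio of its level to the mean of the other pair was 1.4. In acute hypoxia it was highest for 9 genes, all but Rela, with a median ratio of 1.33, and in chronic hypoxia for 6 genes, with a median ratio of 1.13. Over all tested genes the code Z library was the highest of its group for 57.8%, 55.4% and 54.7%. For Nfkbia, Nfkbid, Nfkbiz, Bcl3, Nfkb1 and Nfkb2 it was highest in all 3 groups, as it was for 31.4% of all genes. The differences below are therefore also given by pairs of equal code for the genes that differed most, and without code Z where that alters a family gene's call. Agreement in sign of all 3 pairs was itself common, seen in 37.8% of all tested genes in acute hypoxia against standard oxygen, in 59.5% in chronic hypoxia against standard oxygen and in 56.4% in chronic against acute hypoxia.

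Nfkbid was the family gene with the largest difference between oxygen conditions. It lies on chr7:30421732-30428746 (plus strand, GRCm38, GENCODE M21) and encodes the nuclear inhibitor IkappaBNS. Its level was 116, 133 and 113 TPM in replicates 1, 2 and 3 of standard oxygen. It was 48.3, 45.8 and 51.1 TPM in acute hypoxia, and 33.5, 29.1 and 64.6 TPM in chronic hypoxia. All 6 hypoxic libraries were below all 3 standard libraries, and the highest of the 6 was chronic replicate 3, which has code Z.

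Standard oxygen gave a mean Nfkbid level of 121 ± 10.9 TPM (SD, n = 3). The mean was 48.4 ± 2.65 TPM after acute hypoxia, with 42.4 ± 19.4 TPM after chronic hypoxia (SD, n = 3). After 3 hours in 1% oxygen it was thus at 0.401 times its standard level, and after 7 days at 0.351 times that level. The differences in log2(TPM + 1) were -1.30 ± 0.1 (SE) in acute and -1.57 ± 0.288 (SE) in chronic hypoxia. Within codes X, Y and Z the acute difference was -1.25, -1.28 and -1.37, so the 3 pairs were close to each other. The chronic difference was -1.77, -1.92 and -1.03, smallest in code Z. Nfkbid was called in both comparisons against standard oxygen, by limma with and without the code as a block and without the code Z libraries, where the differences were -1.27 and -1.84. The call was lost in 7 of 17 alternatives in acute and in 8 of 17 in chronic hypoxia, among them the title number as a block and most fits with a library left out, although the direction held in all of them.

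Between the hypoxic groups Nfkbid showed no common direction. The chronic level was below the acute level in codes X and Y, with differences of -0.52 and -0.63 in log2(TPM + 1), and above it in code Z, with a difference of 0.33. The mean difference was -0.27 ± 0.285 (SE), and Nfkbid was not called with or without the block. Without the code Z libraries the difference was -0.58, and Nfkbid was called in the 4 remaining libraries.

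**Figure D1:**
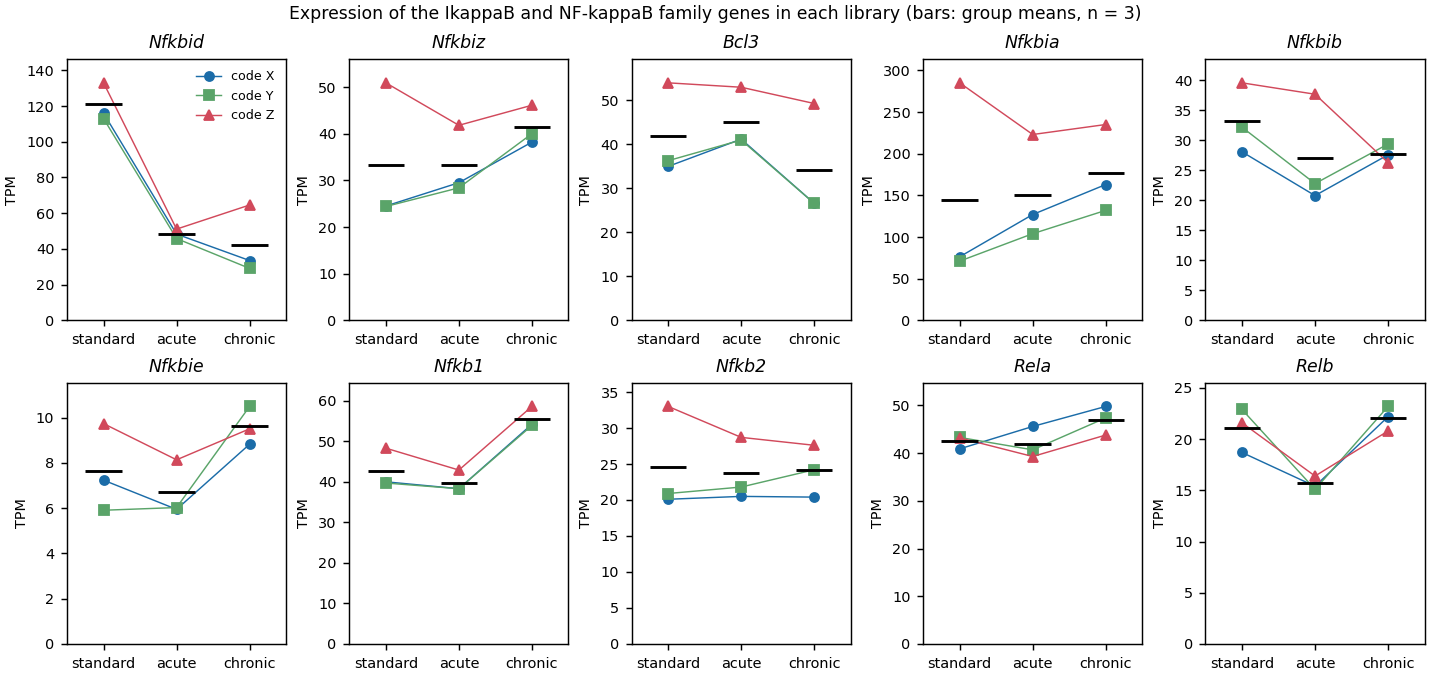
Expression of the 10 family genes in TPM (vertical axis, from 0, a separate scale for each gene) in standard oxygen, acute hypoxia and chronic hypoxia. Each point is a library, a line joins libraries of the same code and the black bars are group means (n = 3). Nfkbid lies at 113 TPM or more in standard oxygen and at 64.6 TPM or less in hypoxia, and code Z is the highest library of all 3 groups in 6 of the 10 panels.

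The other nuclear IkappaBs did not share this pattern. Nfkbiz (chr16:55811375-55838899, minus strand), whose product IkappaB-zeta is an activator of secondary response genes such as Il6, was at 24.5, 50.9 and 24.4 TPM in replicates 1, 2 and 3 of standard oxygen, at 29.5, 28.4 and 41.8 TPM in acute and at 38.2, 40.0 and 46.1 TPM in chronic hypoxia. The groups overlapped in every comparison; the code Z library of standard oxygen was the highest of all 9, and that of acute hypoxia lay above chronic replicates 1 and 2. In codes X and Y the chronic level exceeded the standard level by 0.62 and 0.69 in log2(TPM + 1), and in code Z the difference was -0.14. Nfkbiz was not called in any comparison with all libraries. It was called in chronic hypoxia against standard oxygen, at 0.66, and against acute hypoxia, at 0.42, once the code Z libraries were left out.

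Bcl3 (chr7:19808462-19822770, minus strand), a partner of p50 and p52 homodimers, was at 35.0, 54.0 and 36.3 TPM in standard oxygen, at 41.2, 41.0 and 53.0 TPM in acute and at 26.6, 26.6 and 49.3 TPM in chronic hypoxia. Codes X and Y were nearly level with each other in each group, with code Z above them. In chronic hypoxia Bcl3 was below its acute level in all 3 pairs, with differences of -0.61, -0.61 and -0.10, and below its standard level in all 3, with -0.38, -0.43 and -0.13. The limma adjusted p with the code block was 0.0715 against acute hypoxia and 0.0709 against standard oxygen; with the block and rescaling together it was 0.0496 and 0.0395. Without the code Z libraries Bcl3 was called in both, at -0.61 (limma adjusted p = 0.0119) and -0.41 (limma adjusted p = 0.0266). Of its exonic bases 6.51% overlap an antisense RNA gene, Gm16175, and whether the counting used strand is not given in the sources used here.

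Among the classical IkappaBs, Nfkbia (chr12:55489410-55492647, minus strand) encodes IkappaB-alpha, the inhibitor that is resynthesised after NF-kappaB activation. Its level was 76.3, 285 and 71.1 TPM in replicates 1, 2 and 3 of standard oxygen, 127, 104 and 223 TPM in acute and 163, 132 and 235 TPM in chronic hypoxia. The code Z library of standard oxygen was the highest of all 9, at 3.86 times the mean of the other pair. In codes X and Y the chronic level exceeded the standard level by 1.08 and 0.88 in log2(TPM + 1), and the acute level did so by 0.72 and 0.54. In code Z both were below the standard level, with differences of -0.27 and -0.35. The mean chronic difference of 0.56 ± 0.544 (SE) was about as large as its error. The mean acute difference of 0.30 ± 0.571 (SE) was smaller than its error, and neither was called. Without code Z the chronic difference was 0.98 and was called (limma adjusted p = 0.00897), and the acute difference was 0.63 and was not (limma adjusted p = 0.0631).

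Nfkbib (chr7:28758251-28767512, minus strand) encodes IkappaB-beta. It was at 28.1, 39.6 and 32.2 TPM in standard oxygen, at 20.8, 22.8 and 37.7 TPM in acute and at 27.6, 29.4 and 26.3 TPM in chronic hypoxia. It was lower than in standard oxygen in all 3 pairs of both comparisons, with differences of -0.42, -0.48 and -0.07 in acute and -0.02, -0.13 and -0.57 in chronic hypoxia, and it was not called in either. Its values are uncertain, since 12.2% of the 75-base stretches of its transcript also occur in Ccer2, listed at 0 TPM in every library, and 1.94% of its exonic bases overlap Sirt2, at 56.67 to 85.45 TPM.

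Nfkbie (chr17:45555703-45563169, plus strand), which encodes IkappaB-epsilon, was the lowest family gene in every group. Its level was 7.24, 9.74 and 5.91 TPM under standard oxygen, 5.95, 6.03 and 8.14 TPM in acute and 8.83, 10.5 and 9.51 TPM in chronic hypoxia. All chronic libraries were above all acute libraries, a difference of 0.47 ± 0.154 (SE) in log2(TPM + 1), with 0.50, 0.71 and 0.20 in codes X, Y and Z. It was not called with all libraries (limma adjusted p = 0.167, and 0.0744 with the code block), and was called without code Z at 0.61 (limma adjusted p = 0.0397).

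The makeup of the IkappaB transcripts was described by Nfkbid and Nfkbia, the most abundant of them in standard oxygen. In codes X and Y of standard oxygen Nfkbid exceeded Nfkbia, with ratios of 1.52 and 1.59, whereas in code Z the ratio was 0.468. In acute hypoxia the ratio was 0.382, 0.441 and 0.229 in replicates 1, 2 and 3, and in chronic hypoxia 0.206, 0.221 and 0.275. Every hypoxic library was thus below every standard library, and the nearest values were 0.441 and 0.468. Nfkbid made up 40.4%, 23.3% and 39.9% of the summed TPM of the 6 IkappaB genes in standard oxygen. Its share was 17.7%, 18.5% and 12.3% in acute and 11.3%, 10.9% and 15.0% in chronic hypoxia, so hypoxia and standard oxygen did not overlap either. The share of Nfkbia did overlap, at 25.2% to 49.8% in standard oxygen, 41.9% to 53.8% in acute and 49.2% to 54.7% in chronic hypoxia. The sum itself overlapped between groups, with 282 to 572 TPM under standard oxygen, 248 to 415 under acute and 267 to 431 under chronic hypoxia, and the code Z library held the largest sum in each. These ratios contain the Nfkbid values that were known when the family was picked, and they were not tested.

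**Figure D2:**
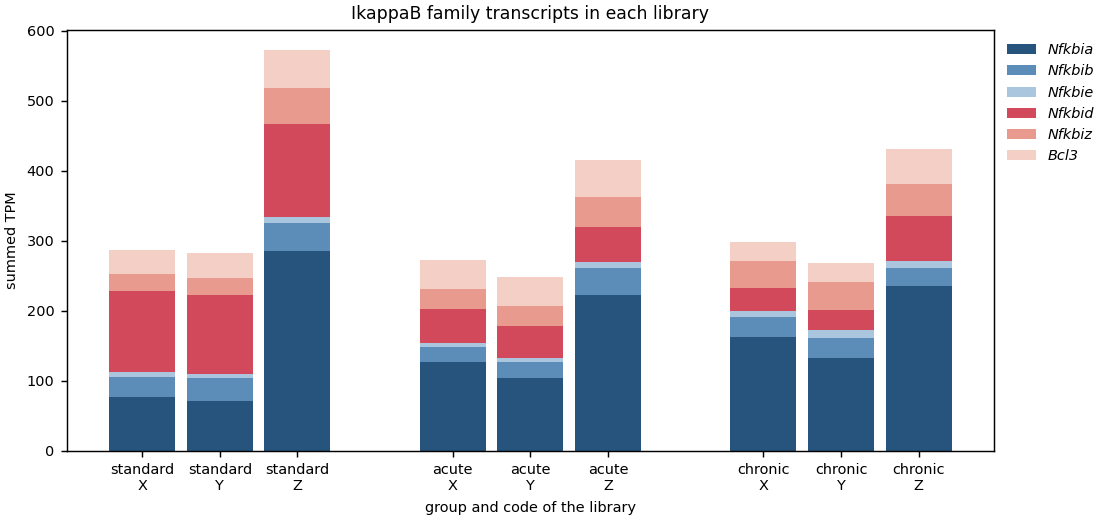
Summed TPM (vertical axis, from 0) of the 6 IkappaB genes in each library, ordered by group and code; each colour is a gene, blue for the classical and red for the nuclear IkappaBs. The Nfkbid segment shrinks from 23.3% to 40.4% of the bar in standard oxygen to 10.9% to 18.5% in the hypoxic libraries, and the code Z bar is the tallest of each group.

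Of the precursor genes, Nfkb1 (chr3:135584655-135691547, minus strand) was at 40.0, 48.3 and 39.7 TPM in standard oxygen. It was at 38.3, 38.3 and 42.9 TPM in acute and at 54.2, 53.9 and 58.6 TPM in chronic hypoxia. All 3 chronic libraries were above the 6 others. The chronic mean was 55.5 ± 2.63 TPM (SD, n = 3), beside a standard mean of 42.7 ± 4.84 TPM and an acute mean of 39.8 ± 2.68 TPM (SD, n = 3), which is 1.3 times the standard and 1.39 times the acute level.

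In log2(TPM + 1) the chronic difference of Nfkb1 was 0.38 ± 0.112 (SE) against standard oxygen and 0.47 ± 0.0969 (SE) against acute hypoxia. The pairs of codes X, Y and Z gave 0.43, 0.43 and 0.27 in the former and 0.49, 0.48 and 0.44 in the latter. Nfkb1 was not called without a block (limma adjusted p = 0.122 and 0.0794), and was called with the code block (limma adjusted p = 0.0309 and 0.0182) and without code Z (limma adjusted p = 0.019 and 0.0179). Against standard oxygen all tested genes had a median difference of 0.16 in chronic hypoxia, and against acute hypoxia 0.14. After median-of-ratios rescaling, which brings these medians close to 0, Nfkb1 stood at 0.20 and 0.32, with a limma adjusted p of 0.135 and 0.0519 under the code block. The acute level was below the standard level in all 3 pairs, with differences of -0.06, -0.05 and -0.17, and was not called.

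Nfkb2 (chr19:46304320-46312385, plus strand), the precursor of the alternative pathway, was at 20.1, 33.0 and 20.9 TPM in standard oxygen, at 20.5, 21.8 and 28.7 TPM in acute and at 20.4, 24.2 and 27.6 TPM in chronic hypoxia. Its mean differed by -0.04 ± 0.223, -0.01 ± 0.216 and 0.03 ± 0.17 (SE) in log2(TPM + 1) in the comparisons of acute with standard, chronic with standard and chronic with acute. None of these exceeded its error, and the 3 pairs differed in sign in each comparison. Of the 75-base stretches of its transcript 17.3% also occur in the overlapping antisense genes AC114539.1 and Psd, the latter at 2.8 to 8.06 TPM, so its level is uncertain by an amount that was not measured.

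Rela (chr19:5637483-5648130, plus strand), which encodes the main activating subunit p65, varied least of the family, with a highest level 1.27 times its lowest. It was at 40.9, 43.2 and 43.3 TPM in standard oxygen, at 45.6, 40.7 and 39.3 TPM in acute and at 49.8, 47.4 and 43.8 TPM in chronic hypoxia. The chronic libraries were above the standard libraries, with 43.8 and 43.3 TPM as the nearest values, at a difference of 0.14 ± 0.0949 (SE) in log2(TPM + 1), with pairs at 0.28, 0.13 and 0.02. That mean was close to the median of all genes and became -0.04 after rescaling. It was called in no comparison.

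Relb (chr7:19606217-19629438, minus strand), the subunit that pairs with p52 in the alternative pathway, was at 18.7, 21.6 and 22.9 TPM in standard oxygen. It was at 15.4, 15.1 and 16.4 TPM in acute and at 22.2, 23.2 and 20.8 TPM in chronic hypoxia. The 3 acute libraries were below the 6 others. The acute mean was 0.744 times the standard mean, a difference of -0.40 ± 0.11 (SE) in log2(TPM + 1), lower in all 3 pairs (-0.26, -0.57 and -0.38), and it was not called (limma adjusted p = 0.407, and 0.181 with the code block). The chronic mean was 1.41 times the acute mean, a difference of 0.47 ± 0.0983 (SE), higher in all 3 pairs (0.50, 0.58 and 0.33). That difference was not called without a block (limma adjusted p = 0.0801), was called with the code block (limma adjusted p = 0.0333) and without code Z (limma adjusted p = 0.0206), and was 0.32 with a limma adjusted p of 0.0897 with the block and rescaling. Chronic hypoxia and standard oxygen overlapped in Relb, at 0.07 ± 0.115 (SE), which became -0.11 after rescaling.

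The order of the mean levels shifted in the middle of the family. Nfkbia had the highest and Nfkbie the lowest mean in all 3 groups, and Relb was next to lowest in all 3. In standard oxygen Nfkbid followed Nfkbia, whose range it overlapped, and lay above Nfkb1 without overlap. In acute hypoxia Nfkbid was still next to Nfkbia, now below it without overlap, and it overlapped Bcl3, the gene after it. In chronic hypoxia Nfkb1 was next to Nfkbia without overlap, Rela came after Nfkb1 and Nfkbid after Rela, and Nfkbid overlapped both Rela and Nfkbiz. In codes X, Y and Z the ratio of Nfkb1 to Rela was 0.978, 0.916 and 1.12 in standard oxygen, 0.839, 0.94 and 1.09 in acute and 1.09, 1.14 and 1.34 in chronic hypoxia. The groups overlapped, but within each code the chronic ratio was above both others; this was not tested.

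Read over the whole family, acute hypoxia against standard oxygen had 1 called gene of 10, Nfkbid, where 0.0273% of all 10987 tested genes were called, and the same gene was the only one called with the code block (0.71% of all genes) and without the code Z libraries (2.95%). The groups did not overlap for Nfkbid and Relb, as for 12.5% of all genes. Apart from Nfkbid the differences in log2(TPM + 1) lay between -0.40 and 0.30. The family's median difference was -0.06 and that of all tested genes 0.01.

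In chronic hypoxia against standard oxygen 1 family gene was called, again Nfkbid, where 2.69% of 11067 genes were called. With the code block Nfkbid and Nfkb1 were called (18.4% of all genes), and without code Z 5 genes, Nfkbid, Nfkbia, Nfkbiz, Bcl3 and Nfkb1 (21.1%). The groups did not overlap for Nfkbid, Nfkb1 and Rela (29.6% of all genes). The median difference was 0.10 in the family and 0.16 over all genes. Both comparisons share the standard oxygen libraries, so their values for a gene are not independent of each other.

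In chronic against acute hypoxia 0 family genes were called by limma without a block, where 0.695% of 11087 genes were called, and 3 had an unadjusted limma p under 0.05, as had 20.8% of all genes. With the code block Nfkb1 and Relb were called (15.5% of all genes), and without code Z 6 genes, Nfkbie, Nfkbid, Nfkbiz, Bcl3, Nfkb1 and Relb (16.3%). The groups did not overlap for Nfkbie, Nfkb1 and Relb (27.8% of all genes). Of the 10 genes 8 had a higher mean log level in chronic hypoxia, all but Nfkbid and Bcl3, and after rescaling 6 had, since Nfkbib and Nfkb2 turned lower. The median difference was 0.21 in the family and 0.14 over all genes. Since the members were picked with such results known, nothing is read from how these shares compare.

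**Figure D3:**
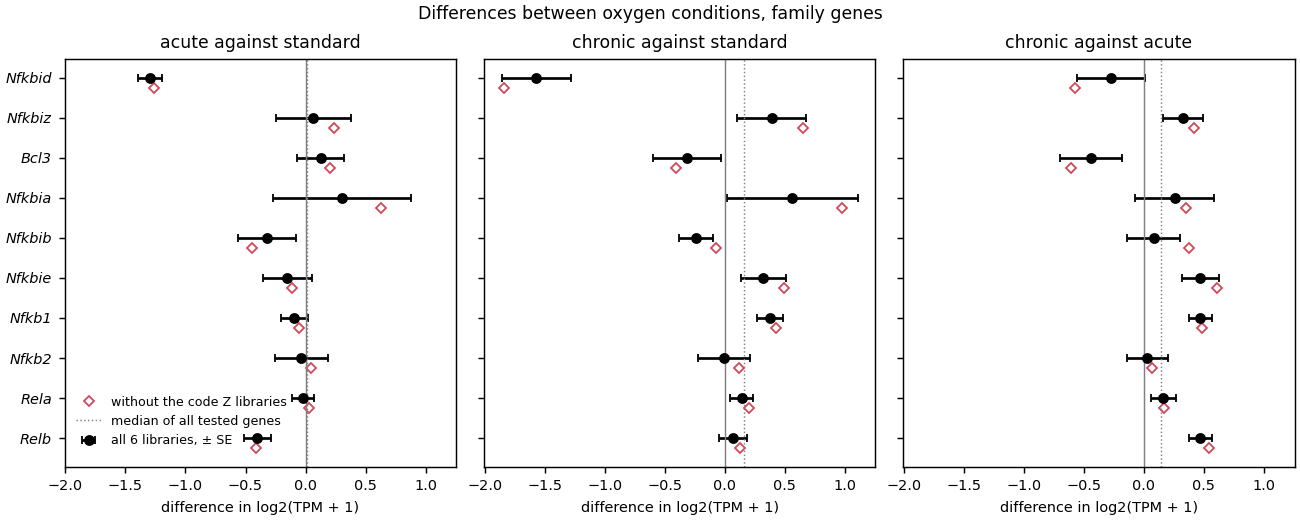
Difference in log2(TPM + 1) of each family gene (horizontal axis) in the 3 comparisons; black points with bars are the fitted difference ± SE over 6 libraries, red diamonds the difference without the code Z libraries, and the dotted line the median of all tested genes. Nfkbid stands at -1.30 and -1.57 in the comparisons with standard oxygen, away from the 9 other genes, and in chronic against acute hypoxia Nfkbie, Nfkb1 and Relb stand at 0.47.

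The genes whose levels followed Nfkbid most closely over the 9 libraries, by Pearson's r of log2(TPM + 1) among 7090 genes with a mean of at least 10 TPM, were Ctdnep1 (r = 0.929), Sod2 (r = 0.902), Hibadh (r = 0.9), Ivd (r = 0.895) and Lrrc14 (r = 0.892). The 9 libraries share 3 groups and 3 codes, so these values describe likeness only. Sod2, the mitochondrial superoxide dismutase, ranged from 114 to 116 TPM under standard oxygen, from 104 to 107 under acute and from 87.3 to 107 under chronic hypoxia, a far smaller change in level than that of Nfkbid. Ivd, an enzyme of leucine breakdown, was at 103 to 126, 70.5 to 89.5 and 38.9 to 62.7 TPM. For Nfkb1 the most alike were Ikbke (r = 0.993), Dennd1c (r = 0.988), Ivns1abp (r = 0.988), Lbp (r = 0.987) and Ywhae (r = 0.981). Ikbke, which encodes the IkappaB kinase relative IKK-epsilon, was at 138, 201 and 149 TPM in standard oxygen, at 129.6, 131 and 165 TPM in acute and at 231, 250.3 and 286 TPM in chronic hypoxia, so its chronic libraries were above the 6 others, as for Nfkb1.

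The rest of the pathway was read from 6 lists with 88 genes in all, of which 75 were tested in acute hypoxia against standard oxygen and 73 in each of the other comparisons. In acute hypoxia against standard oxygen limma called 0 of the 75 without a block, with 8 at an unadjusted p under 0.05 (7.14% of all genes), and 4 with the code block (5.33% of the list genes, beside 0.71% of all genes). These 4 were target genes: the chemokine genes Ccl3 and Ccl4 were lower, and Ier3 and Nos2 were higher. Ccl3 was at 649.6, 1015 and 594 TPM under standard oxygen and at 196, 167 and 392 TPM after acute hypoxia (-1.64 ± 0.356 (SE) in log2(TPM + 1), limma adjusted p = 0.252, and 0.0117 with the code block). Ccl4 was at 287, 535 and 272 TPM and at 129, 95.9 and 155 TPM (-1.47 ± 0.299, limma adjusted p = 0.223 and 0.0299).

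Ier3, an early survival gene, was at 16.3, 44.0 and 15.2 TPM under standard oxygen and at 77.2, 77.9 and 135 TPM after acute hypoxia (2.02 ± 0.433, limma adjusted p = 0.248, and 0.0175 with the code block). Nos2, the inducible nitric oxide synthase, was at 2.53, 133 and 2.08 TPM and at 35.9, 41.8 and 800.2 TPM, so that code Z was far above the others in both groups (3.25 ± 1.80, limma adjusted p = 0.858 and 0.0166). Of the other lists, 0 genes were called with the block. Without the code Z libraries 7 list genes were called, where 2.95% of all genes were called. They were these 4 together with Tnf (-0.82, limma adjusted p = 0.0105), Tlr2 (1.22, limma adjusted p = 0.0105) and Tnip3 (0.94, limma adjusted p = 0.0129). Some target genes tested with all libraries fell below the filter in that fit. The most distant values were those of the receptor gene Tlr2 (0.75) and Tnfrsf11a (-0.13), the adaptor genes Traf6 (0.88) and Traf5 (-0.44), the kinase genes Tab3 (0.35) and Ikbke (-0.19), and the feedback genes Tnip3 (0.76) and Nkiras1 (-0.39). Rel, the subunit gene outside the 10, was at 5.67 to 8.39 TPM over all libraries and was called in no comparison.

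In chronic hypoxia against standard oxygen 3 of 73 list genes were called without a block, where 2.69% of all genes were called. Tnip3, an inhibitor that binds the ubiquitin editor A20, rose from 54.8, 85.3 and 52.5 TPM to 147, 136 and 144 TPM (1.17 ± 0.191, limma adjusted p = 0.0379). Ccl3 fell to 317, 267 and 233 TPM (-1.43 ± 0.227, limma adjusted p = 0.0366). Bcl2a1d fell from 24.1, 29.6 and 22.7 TPM to 8.57, 7.64 and 10.5 TPM (-1.42 ± 0.159, limma adjusted p = 0.0146). The reservation is that the Bcl2a1 genes are near-identical copies whose reads may be split between them. Bcl2a1b, the listed copy with the highest mean, went from 188, 117 and 182 TPM to 269, 283 and 85.7 TPM. It was thus higher in codes X and Y and lower in code Z. Its difference was 0.235 and was not called (limma adjusted p = 0.803). Without code Z it was 0.575 and was called (limma adjusted p = 0.00751). Bcl2a1a was lower (-0.625) and was called only with the code block. A change in the summed transcript of the copies was not tested. With the code block 15 were called, 9 higher and 6 lower, or 20.5% of the list genes beside 18.4% of all genes. Without code Z 26 were called, 17 higher and 9 lower, where 21.1% of all genes were called. Of the 15 called with the block, fitted over all 6 libraries, the higher ones included Irak3 (0.81), Traf6 (0.69), Tlr2 (0.81) and Ikbke (0.66). Irak3 is a brake on Toll-like receptor signalling. The lower ones of the 15 included Irak2 (-0.36) and Ikbkg (-0.49), which encodes the regulatory subunit of IkappaB kinase. After rescaling, Tnip3, Ccl3 and Bcl2a1d were again the 3 called without a block, where 233 of all 11067 genes were called. With the block and rescaling 16 were called, 4 higher and 12 lower, beside 1267 of all genes, 612 higher and 655 lower. Of the 15 called with the block alone 10 were among these 16, and none of the 15 changed sign; Irak3 and Tlr2 were among those no longer called. Tnfrsf1b (-0.24) and Tnfaip3 (-0.68), the gene of A20, had the lowest values of the receptor and feedback lists. Nos2 (2.51 ± 1.53 (SE)) and Lcn2 (-1.61 ± 1.12 (SE)) were the ends of the target list. Of these genes only Lcn2 was called with the block (limma adjusted p = 0.0122, and 0.44 without it), and it stayed called with the block and rescaling.

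In chronic against acute hypoxia 1 of 73 list genes was called without a block, where 0.695% of all genes were called. Irak3 rose from 56.1, 50.4 and 70.0 TPM to 134, 127 and 122 TPM (1.12 ± 0.137, limma adjusted p = 0.0428). With the code block 16 were called, 9 higher and 7 lower, or 21.9% of the list genes beside 15.5% of all genes. Without code Z 23 were called, 17 higher and 6 lower, where 16.3% of all genes were called. Of the 16 called with the block, fitted over all 6 libraries, Ikbke (0.85), Ikbkb (0.36), Tnip3 (0.41), Cyld (0.37) and Tnf (0.49) were among the higher. Among the lower of the 16 were Ikbkg (-0.58), Tnfaip3 (-0.51), Zc3h12a (-0.58), Tnfrsf1b (-0.37), Lcn2 (-1.41) and, with the reservation given above, Bcl2a1d (-1.34). Feedback genes were thus on both sides in this fit. With the block and rescaling, Tnfaip3 and Zc3h12a kept their calls, and the higher Tnip3, Cyld and Pdlim2 did not. Of the other Bcl2a1 copies, Bcl2a1a was also lower and called with the block (-0.689). Bcl2a1b stood at 0.117 and was not called with the block, and without code Z it was called at 0.521. With the block and rescaling 10 were called, beside 1086 of all 11087 genes. Of the 10, 3 were higher (Irak3, Tnf and Ikbke) and 7 lower, all of them among the 16, and none of the 16 changed sign. The remaining ends of the lists were Tnfrsf11a (0.36), Nkiras2 (0.43) and Traf6 (-0.19). Within the kinase list 11 of 12 genes had a higher mean log level in chronic than in acute hypoxia, at a list median of 0.23 beside 0.14 for all genes, and after rescaling it was 9 of 12; in the target list it was 11 of 20, at a median of 0.05.

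**Figure D4:**
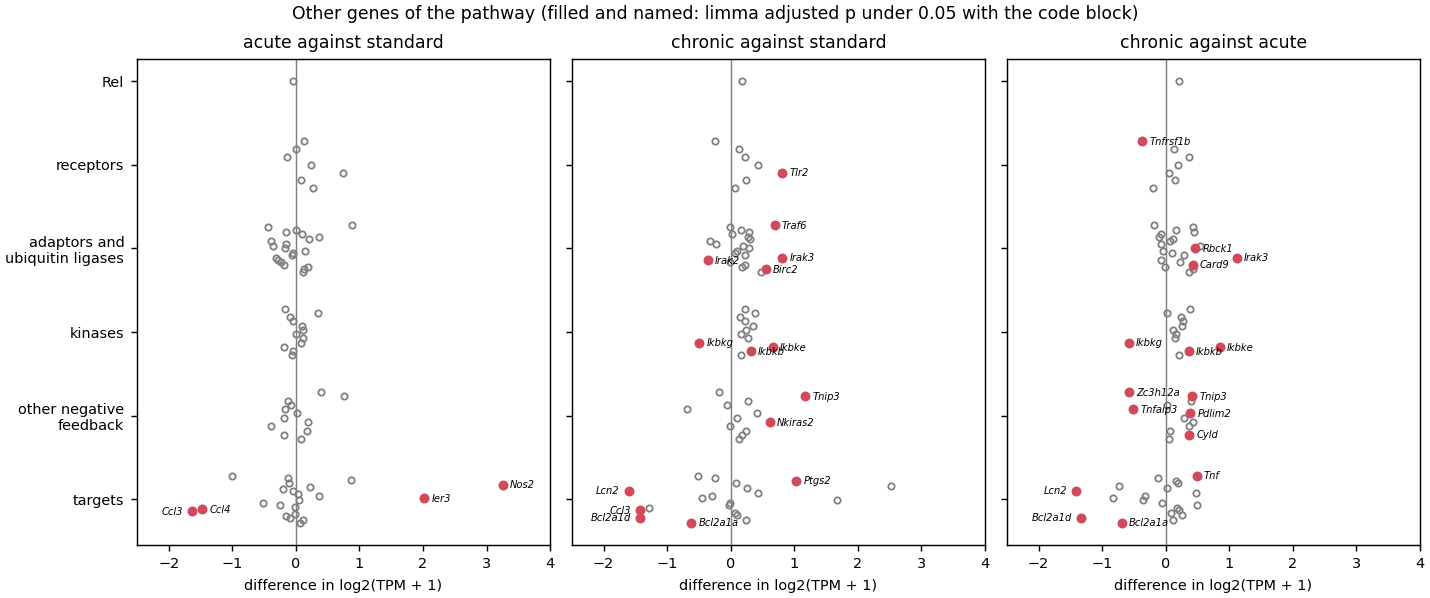
Difference in log2(TPM + 1) (horizontal axis) of the tested genes of 6 NF-kappaB pathway lists in the 3 comparisons; each point is a gene, spread vertically only to keep points apart. Filled points carry the names of the genes called by limma with the code block, 4 in acute hypoxia against standard oxygen, 15 in chronic hypoxia against standard oxygen and 16 in chronic against acute hypoxia.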

How the data were processed

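Per the submitters' processing notes, the tools were FastQC, STAR and featureCounts, without versions, and the build was GRCm38; the strand setting of the counting is not given in the sources used here. The labels' protocols give an Illumina TruSeq mRNA library and reads of 75 bases from both ends. TPM values were deposited in 3 tables, 1 for each pair of groups, with 34866 genes and 6 sample columns; each sample's values were the same in both tables that held it. Symbols matched 34582 identifiers. TPM keeps no depth, so no counting error can be given, and a change in abundant genes shifts the others.

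Each comparison was fitted over all genes on its 6 samples with limma 3.58.1 in R 4.3.3 (eBayes with a trend, two-sided) on log2(TPM + 1), a scale that understates changes of low genes. The filter was a mean of 1 TPM or more over the 6 samples, and a call was an adjusted p (Benjamini-Hochberg) under 0.05; all 10 family genes passed the filter. The script was tested on simulated data. The family, the pathway lists and the marker lists were chosen with earlier results of these data known. The text names all family genes, the 5 genes most alike to Nfkbid and to Nfkb1, the highest and lowest gene of each list, and list genes that were called.

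Pairing was taken from the digits shared by the sample descriptions: deviations from the group means correlated within every pair, at 0.378 to 0.633 over 11065 genes. Title numbers gave -0.515 to 0.394 in the comparisons with standard oxygen. Code Z stood apart in every group, and deviations from a group mean sum to 0, so codes X and Y both deviate away from Z. These correlations therefore bear on the matching of code Z. They cannot tell the matching of X and Y from the same with X and Y exchanged, which was not tested. An exact permutation test on 3 against 3 samples cannot go below 0.1, so none was run on single genes. Promoters came from RefSeq (GRCm38.p6) and loci from GENCODE M21.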

Additional observations from a re-analysis of the deposited data

Results flagged for a closer look

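Nfkb1 and Relb were flagged because the effects of acute and of chronic hypoxia differed by the test of chronic against acute hypoxia with the code block. That test called these 2 of the 10 family genes, where 15.5% of all 11087 genes were called. Nfkbie had a difference of the same size, 0.47, and was not called (limma adjusted p = 0.0744 with the block). For Nfkb1 the difference between the effects was 0.47 in log2(TPM + 1), from -0.09 in acute and 0.38 in chronic hypoxia against standard oxygen, with a limma adjusted p of 0.0182 with the block and 0.0794 without it; the acute value was below 0 and the chronic value above 0 in all 3 pairs of codes. For Relb the difference was 0.47, from -0.40 in acute and 0.07 in chronic hypoxia, with a limma adjusted p of 0.0333 with the block and 0.0801 without it. With the block and rescaling together the adjusted p was 0.0519 for Nfkb1 and 0.0897 for Relb, so neither call held there. With 3 samples in each group, no group was large enough for a rule that flags a single outlying library. The code Z libraries and the fits with a library left out are described in other paragraphs.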

How the results depend on the processing

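The counts of called genes depended strongly on the fit, and some family values moved with it too. Against standard oxygen Nfkbia lay between -0.044 and 0.95 in acute and between 0.215 and 1.208 in chronic hypoxia over the settings. In acute hypoxia against standard oxygen 3 genes were called; the count was 21 after rescaling, 5 without the trend, 25 with all 9 samples in 1 fit, 78 with the code block, 54 with the code block and rescaling, 319 without the code Z libraries, and 0 to 33 with a replicate left out. With the title number as a replicate block it was 0, with 579 genes at an unadjusted p under 0.05. In chronic hypoxia against standard oxygen 298 genes were called; the count was 120 with no filter, 166 without the trend, 770 with all 9 samples, 2039 with the code block, 1267 with the block and rescaling, 2300 without code Z, 1 with the title number as a replicate block, and 1 to 522 with a replicate left out. In chronic against acute hypoxia 77 were called; the count was 7 with no filter, 25 without the trend, 417 with all 9 samples, 1724 with the code or title number as a replicate block, which give the same pairs here, 1086 with the block and rescaling, 1788 without code Z, and 1 to 308 with a replicate left out. Rescaling moved the called genes in chronic hypoxia against standard oxygen from 232 higher and 66 lower to 115 higher and 118 lower, those in chronic against acute hypoxia from 61 and 16 to 33 and 48, and those in acute hypoxia from 2 and 1 to 19 and 2. The causes of these shifts were not tested.

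Of 510 recomputed differences of family genes, 497 moved by less than 1 SD and 0 called differences changed sign; 29 uncalled ones did, all with a size of 0.304 or less in the text. In this balanced design a change of filter, trend or block, or a fit of all 9 samples, leaves a fitted difference unchanged. Agreement under those settings was thus fixed in advance and is no sign of stability. Nfkbid stayed between -1.35 and -1.23 in acute and between -1.91 and -1.35 in chronic hypoxia. It was called in 10 of 17 and 9 of 17 alternatives, and was lost with the title block, in both comparisons on leaving out standard replicate 1 or 3 or replicate 1 or 2 of the hypoxic group, in acute hypoxia also without acute replicate 3 or with all 9 samples, and in chronic hypoxia also without standard replicate 2, without the trend or with no filter.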
